A study of Mus musculus with 2 samples.

Results

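Solute carriers (Slc genes) form a large superfamily of membrane transport proteins. They move amino acids, sugars, ions, metals, nucleotides and organic acids across the plasma membrane and the membranes of organelles, and members are grouped into numbered families by sequence and substrate. Cleavage-stage embryos depend on several of them, among them Slc6a9, the glycine transporter that loads early blastomeres with an organic osmolyte. The members described here are the peaks of a Dnmt1 DamID experiment that the submitters assigned to an Slc gene. They were selected by the gene name in the deposited peak list, and the list itself holds only peaks selected on their heights. The list held 144 such peaks at 86 Slc genes, or 1.75% of its 8226 peaks. All 86 symbols matched genes of the RefSeq table, by accession or else by gene ID or symbol. A further 4 Slc genes, known as imprinted, were left out, and 1 of them carried the 2 peaks that bring the total to 146.

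In DamID, a bacterial adenine methyltransferase (Dam) is expressed either fused to a protein of interest or alone, and the adenine methylation it leaves on GATC sequences is mapped. The Dnmt1-Dam group was 1 library from embryos injected with a fusion of Dam, a V5 tag and Dnmt1, the methyltransferase that maintains CpG methylation at replication. The Dam-only group was 1 library from embryos injected with unfused Dam. Zygotes of both groups came from hormone-primed females of 5 weeks of the strain BCF1 (C57BL/6 x CBA/CA), and 50 embryos per construct were pooled at the 4- to 8-cell stage. Each peak is given as 1 position with a height in each library, written here as Dnmt1-Dam against Dam-only (9 against 1). The labels give neither the amount of each protein in the embryos nor the number of reads sequenced, so the depth behind a height is unknown. With 1 library per group no difference between the libraries has a replicate check, and no test was run. Intervals below are exact 95% intervals for shares and densities and cover counting error only.

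Every peak of the list had a Dnmt1-Dam height of at least 7 that exceeded its Dam-only height by at least 6, so the heights below describe a selected set. At the lower edge, 37 of the 144 Slc peaks (25.7%) lay at 7, 33 at 8 and 25 at 9. Positions below that edge were not analysed here.

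The list was matched to a RefSeq gene table by accession, or else by gene ID or symbol. This placed a peak at 97 of 371 protein-coding Slc genes (26.1%), 11 of them listed under another name in the file. Over all 21031 coding genes of that table the share was 22.7%. A peak inside the gene was found at 58 Slc genes (15.6%), beside 11.7% of all coding genes. Having a peak is what chose the members, so these shares are given as background only.

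Proximal promoters held 4 Slc peaks (2.78%, 0.762 to 6.96), beside 2.69% of the other named peaks. The class covers the 3 kb before the gene start and the 1 kb after it. Slc22a16 had one 0.763 kb past its start (7 against 1), Slc5a9 0.503 kb past it (8 against 1) and Slc24a4 0.482 kb past it (10 against 1), each with no repeat. The peak of Slc17a4, of the vesicular and organic anion transporter family, lay 2.61 kb upstream in an LTR element (10 against 1). No Slc peak lay in a CpG island (0 of 144, which allows up to 2.53%), where the share in other named peaks was 0.591%. Island shores held 7 (4.86%, 1.98 to 9.76, against 3.44%). These were at Slc1a4, Slc25a25, Slc35b1 (13 against 3), Slc40a1, the choline transporter-like gene Slc44a2, Slc45a1 and Slc6a20 (12 against 2), with heights of 7 to 9 at the other 5. The accession of Slc6a20 belongs to Slc6a20b in the RefSeq table, 1 of a pair of mouse paralogs.

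RefSeq promoter sequences are shown for Slc22a16 and Slc24a4 for their content of GATC, the sequence Dam methylates, and of CpG, the substrate of Dnmt1. Each run is the 250 bases before the gene start on the plus strand (GRCm38.p6, chr10:40570112-40570361 for Slc22a16 and chr12:102128477-102128726 for Slc24a4), with each CG in capitals. The peaks themselves lie past the gene start and outside these windows.
Slc22a16: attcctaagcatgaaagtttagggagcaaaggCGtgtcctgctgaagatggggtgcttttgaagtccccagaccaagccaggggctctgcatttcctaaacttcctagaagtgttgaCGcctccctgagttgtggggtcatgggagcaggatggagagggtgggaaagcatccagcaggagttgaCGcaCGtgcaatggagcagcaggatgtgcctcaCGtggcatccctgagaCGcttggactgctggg
Slc24a4: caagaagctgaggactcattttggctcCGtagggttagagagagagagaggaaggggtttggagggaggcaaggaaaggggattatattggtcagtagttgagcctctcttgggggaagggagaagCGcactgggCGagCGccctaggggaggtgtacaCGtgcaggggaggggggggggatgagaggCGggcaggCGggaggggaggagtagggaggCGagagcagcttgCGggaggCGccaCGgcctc
The first holds 6 CG and the second 11, beside a median of 6 (interquartile range 2 to 16) over 32851 promoter windows of this length, 92.1% of which hold at least 1. Neither holds GATC, a palindrome read the same on both strands. GATC occurs in 41.9% of all these windows and in 42.8% of the 362 windows of Slc genes. Those 362 windows have a median of 10 CG (interquartile range 4 to 17).

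Slc peaks were divided almost evenly between the genes and their surroundings. Of the 144, 71 lay between the start and end of the assigned gene (49.3%, 40.9 to 57.8) and 73 lay outside it. Among the 7609 other peaks with a named gene, 42.8% (41.7 to 43.9) lay inside, a value within the Slc interval. Peaks of one gene are not independent. With only the highest peak of each gene kept, 49 of 86 lay inside (57.0%, 45.8 to 67.6). By gene, 44 had inside peaks only, 35 had outside peaks only and 7 had both. In the submitters' classes, 68 Slc peaks were gene body, 68 intergenic, 4 distal promoter and 4 proximal promoter. Ion channel genes, another large class of membrane transport genes (63 genes with 107 peaks, taken by symbol), had 62.6% of their peaks inside (52.7 to 71.8). The intervals of these 2 groups overlap and the difference was not tested.

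The outside peaks were mostly remote. Their median distance from the nearer end of the gene was 103 kb, with a range of 2.61 to 1511 kb, and 37 of 73 were more than 100 kb away (50.7%, 38.7 to 62.6). Only 7 (9.59%, 3.94 to 18.8) lay within 10 kb. Other outside peaks had a median of 60.0 kb, with 40.1% beyond 100 kb. Of the 37 Slc peaks beyond 100 kb, 6 were at Slc10a2, 6 at Slc35b3, 4 at Slc4a3 and 4 at Slc7a11. Peaks of 1 gene are not independent, and the distances were not recalculated with 1 peak per gene. Of the 73, 54 lay upstream of the assigned gene and 19 downstream (74.0% upstream, 62.4 to 83.5), where other outside peaks were 62.5% upstream (61.1 to 64.0). That share is just inside the Slc interval. None of the 73 fell inside another gene that the list holds. At these distances the gene name records the submitters' assignment and not a measured link.

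**Figure D1:**
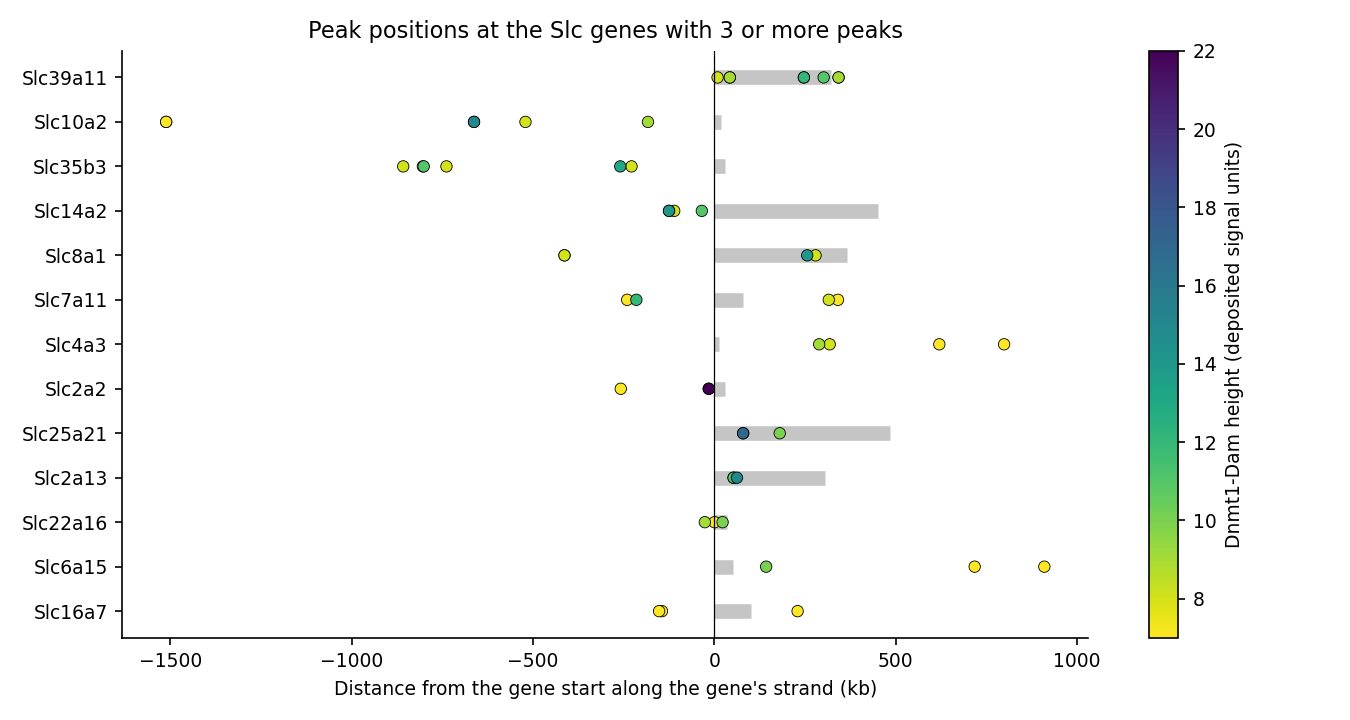
Peak positions at the 13 Slc genes with 3 or more peaks, as distance in kb from the gene start along the gene's strand. Grey bars are the genes, and point colour is the Dnmt1-Dam height, with the higher of overlapping points on top. Of the 13 genes, 8 have every peak outside the gene and 5 have at least 1 inside.

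Most genes held a single peak: 56 had 1, 17 had 2 and 13 had 3 or more. Those 13 genes held 54 of the 144 peaks. In 5 of them at least 1 peak lay inside, and in the other 8, which ranged from 13.2 to 451 kb in length, every peak lay outside.

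Slc39a11, which encodes the zinc transporter ZIP11, had the most peaks. The gene spans 321 kb of chromosome 11 (113106169 to 113427075, minus strand, mm9) and held 6 peaks inside and 2 outside. Counted from its start, the inside peaks lay at 9.09 kb (8 against 2, in tRNA-derived repeat sequence), 42.9 kb (9 against 2), 43.0 kb (7 against 1), 247.0 kb (9 against 1), 247.1 kb (12 against 3) and 302 kb (11 against 1). The 2 outside peaks, both 9 against 1 in simple repeats, lay 21.6 and 21.8 kb past the gene's end. As 6 of its 8 peaks are close pairs, keeping 1 peak per run of peaks up to 1 kb apart left 5. None of the 8 was named as a retroelement.

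Slc25a21, a mitochondrial carrier of oxodicarboxylates, spans 485 kb of chromosome 12 and held 3 peaks, all inside. They lay at 79.5 kb (17 against 1), 79.7 kb (7 against 1) and 180.5 kb (10 against 1) from its start. Slc2a13, the proton-coupled inositol transporter, spans 306 kb of chromosome 15 and also held 3 inside peaks, at 53.2 kb (11 against 1), 53.3 kb (10 against 1) and 62.5 kb (15 against 3). In each of these genes all peaks lay in the part nearer the start. Slc8a1, the sodium/calcium exchanger NCX1, spans 365 kb of chromosome 17 and had 2 peaks inside, at 256 kb (14 against 6) and 279 kb (8 against 1). Its other 2 lay 413 kb upstream, 110 bp apart in LINE sequence, each 8 against 1. The last of these 5 genes, Slc22a16, had 1 peak 26.0 kb upstream (9 against 1, in an LTR element) besides its 2 inside peaks.

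Slc10a2, the bile acid transporter of the ileum, is 19.6 kb long (chromosome 8, 5085623 to 5105232, minus strand) and had 6 peaks, none inside. They lay 183 kb (9 against 1), 520.5 kb (8 against 1), 662 kb (a pair of 13 and 15, both against 1) and 1511 kb upstream (a pair of 7 against 1 in a DNA transposon). Slc35b3, a Golgi carrier of the sulfate donor PAPS, is 28.4 kb long and had 6 peaks 228 to 858 kb upstream, with heights of 8 to 13. Slc4a3, an anion exchanger, is 13.2 kb long and had 4 peaks 276 to 786 kb past its end, with heights of 7 to 9. Slc7a11, the cystine/glutamate exchanger that feeds glutathione synthesis, had 4 peaks around its 78.7 kb. Of these, 12 against 3 and 7 against 1 were upstream (215 and 240.1 kb), and 8 against 1 and 7 against 1 were downstream (237 and 262 kb). Slc14a2, the renal urea transporter, is 451 kb long but had all 4 peaks upstream, at 34.3 to 125 kb, with heights of 8 to 14 against 1. Slc6a15 and Slc16a7, carriers of neutral amino acids and of monocarboxylates, had 3 outside peaks each, at heights of 7 to 10 and of 7.

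Gene length went with the number of inside peaks. The 51 Slc genes with an inside peak had a median length of 47.2 kb (interquartile range 25.8 to 106), and the 35 with outside peaks only had a median of 27.0 kb (17.3 to 54.6). These ranges overlap. Among Slc genes up to 25 kb, 12 of 29 had an inside peak (41.4%), against 8 of 11 genes over 200 kb (72.7%). In the other named genes with a peak these shares were 26.4% and 83.7%, and the median lengths with an inside peak and with outside peaks only were 78.9 and 21.7 kb. Across the 86 genes, which are not independent replicates, Spearman's rho between length and inside peaks was 0.38. Exceptions occurred at both ends. Slc39a4, the intestinal zinc importer ZIP4, is 4.47 kb long and held a peak of 16 against 4. Slc35f1 is 421 kb long and its 1 peak (10 against 1) lay 67.8 kb upstream.

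Per length, inside peaks were sparser in longer genes. Slc genes up to 25 kb held 28.0 inside peaks per Mb (14.5 to 49.0) and those over 200 kb held 4.95 (3.02 to 7.65). Other named genes with a peak gave 26.2 and 4.11 per Mb in the same classes, within the Slc intervals. Over all 86 genes the density was 9.45 per Mb (7.38 to 11.9), beside 7.13 (6.88 to 7.37) in the other genes. Genes entered by having an assigned peak, and a short gene with an inside peak then has a high density by construction. This choice shapes the order by length, so the densities describe the listed genes only.

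**Figure D2:**
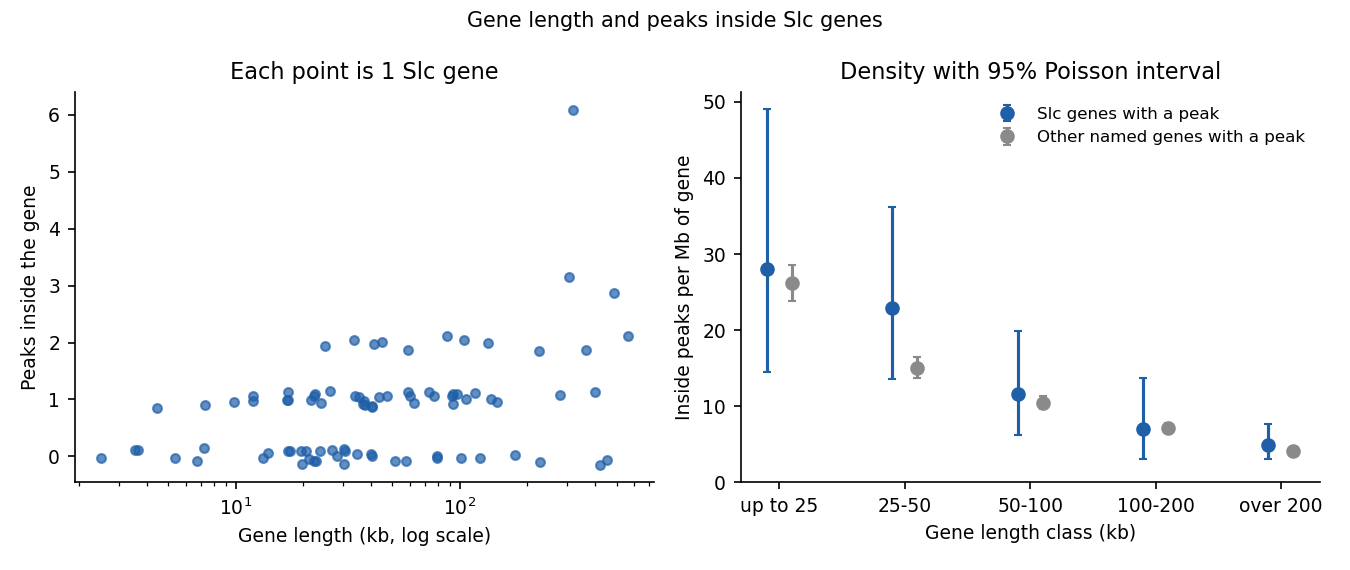
Left, number of peaks inside each of the 86 Slc genes (spread slightly on the vertical axis) against gene length in kb on a log scale. Right, inside peaks per Mb of gene by length class for Slc genes and for other named genes with a peak, with exact 95% Poisson intervals. Density is 28.0 per Mb in the shortest and 4.95 in the longest Slc class, and the other genes follow the same order. Genes entered by having a peak, which shapes this order.

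Peaks inside Slc genes were mostly free of annotated repeats. Of the 71, 59 had no repeat named (83.1%, 72.3 to 91.0) and 10 a retroelement (14.1%, 6.97 to 24.4). Among inside peaks of the other named genes the shares were 65.8% (64.1 to 67.4) and 30.4% (28.9 to 32.1), both outside the Slc intervals. Outside the genes the sets were closer: 29 of 73 Slc peaks (39.7%, 28.5 to 51.9) and 38.9% of the others carried a retroelement. No test was run on this difference, which was noticed in these data. The inside share in Slc genes was 15.4% with 1 peak kept per run of peaks up to 1 kb apart, and 18.4% with 1 peak per gene, the latter from 49 peaks. The interval of 6.97 to 24.4 counts every peak, and peaks of 1 gene are not independent. No interval was computed for 1 peak per gene, so whether it would leave out 30.4% is not known. Inside peaks of ion channel genes carried a retroelement in 20.9% (11.9 to 32.6), an interval that contains both 14.1% and 30.4%.

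Among Slc genes the retroelement share was lower in longer genes. It was 3 of 12 in genes up to 25 kb and 4 of 18 in genes of 25 to 50 kb, and 0 of 20 in genes over 200 kb, which allows up to 16.8% by the exact interval. In the other named genes it was 24.8% (21.0 to 28.9) up to 25 kb, 39.1% at 25 to 50 kb, 33.3% at 50 to 100 kb, 31.5% at 100 to 200 kb and 27.1% (24.5 to 29.9) over 200 kb. The shortest class was thus close to the Slc value of 25%, and the Slc classes of 50 to 100 kb and 100 to 200 kb had 2 of 13 and 1 of 8. The 20 Slc peaks come from 8 genes, 6 of them from Slc39a11. How much of these genes is repeat sequence was not analysed here.

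By class, SINEs, short non-autonomous elements, were named at 23 Slc peaks (16.0%, 10.4 to 23.0), of which 7 were inside a gene. LTR elements, the endogenous retroviruses and relatives, were named at 10 (6.94%, 3.38 to 12.4), of which 2 were inside. LINEs, longer elements that encode their own reverse transcriptase, were named at 7 (4.86%, 1.98 to 9.76), of which 1 was inside, in Slc47a2. Each interval contains the share of the other named peaks (17.4% SINE, 10.8% LTR and 8.15% LINE). The 2 LTR peaks inside genes were in the carnitine transporter Slc22a16 (10 against 1) and in Slc5a11, an inositol transporter (9 against 2). The highest SINE peaks were a pair 120 bp apart on the X chromosome, 61.7 and 61.8 kb upstream of the amino acid transporter Slc6a14 (16 against 4 and 15 against 1), and a peak of 15 against 3 inside the GABA transporter Slc6a13. The median height was 9 (range 7 to 16) at Slc peaks in SINEs, 8 (7 to 10) in LTR elements, 8 (7 to 12) in LINEs and 9 (7 to 22) with no repeat, so heights overlapped across classes.

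**Figure D3:**
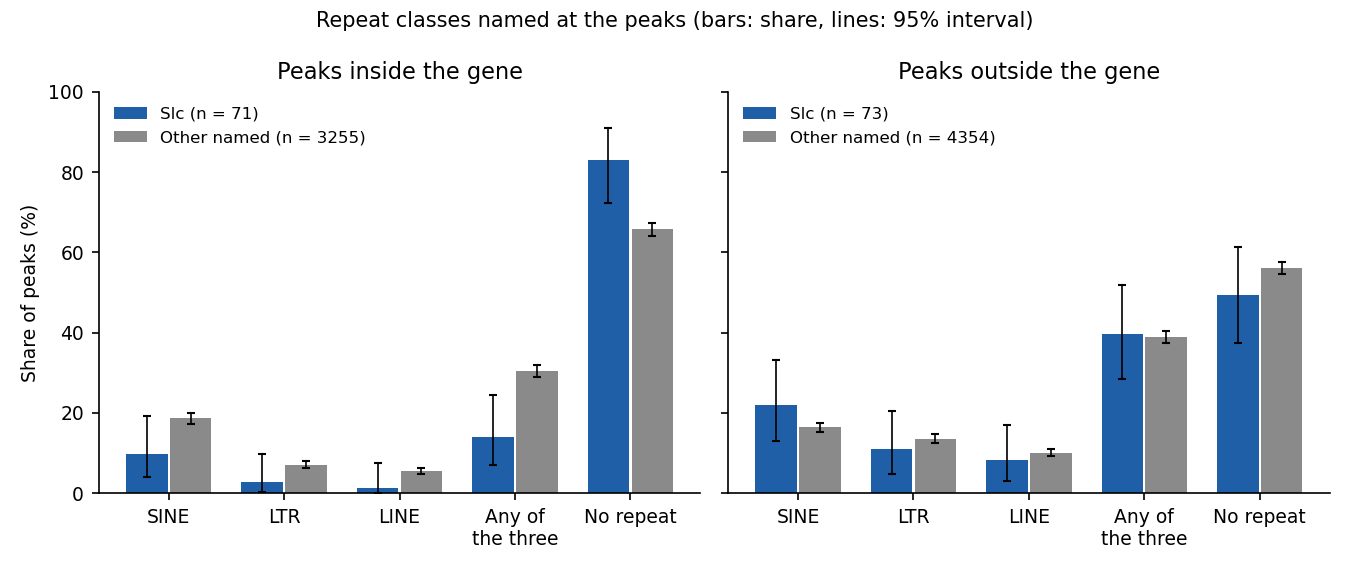
Share of peaks (%) at which each repeat class is named, for peaks inside (left) and outside (right) the assigned gene, in Slc genes and at other named genes. Lines are exact 95% intervals that count every peak, also those that share a gene. Inside the genes 83.1% of Slc peaks have no repeat against 65.8% of the others, and outside the genes the intervals overlap.

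Heights of Slc peaks were low and close to those of the other peaks. The median was 9 (interquartile range 7 to 11, range 7 to 22), the same median and quartiles as in the other 7609, whose highest was 202. The median log2 ratio of the heights, with 1 added to each, was 2.17 in both sets, the value of a peak of 8 against 1. Inside peaks had a median of 9 and outside peaks of 8. Heights of 15 or more were reached by 11 Slc peaks (7.64%, 3.87 to 13.3), beside 8.77% of the others.

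The highest Slc peak, 22 against 1, lay 15.2 kb upstream of Slc2a2, which encodes the low-affinity glucose transporter GLUT2 of liver and pancreatic islets (chromosome 3, 28581651). A second peak 100 bp away reached 14 against 1. Next was a peak inside Slc26a9, an epithelial anion transporter, at 20 against 2 (chromosome 1, 133652961), 12.4 kb from its start. Slc12a4, the potassium-chloride cotransporter KCC1, held a repeat-free peak of 17 against 1 at 5.57 kb (chromosome 8, 108484371), equal in both heights to the top peak of Slc25a21. The peaks of 16 were at Slc39a4 and Slc6a14, both against 4. Slc16a9, of the monocarboxylate family, had 15 against 6 at 46.0 kb past its end.

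The Dam-only height exceeded 1 at 32 of the 144 peaks. These were 22 of the 71 inside peaks (31.0%, 20.5 to 43.1) and 10 of the 73 outside peaks (13.7%, 6.77 to 23.8), while in the other named peaks the shares were 24.8% inside and 23.6% outside. The Slc outside interval just includes the latter, and the difference between inside and outside peaks was not tested. The highest Dam-only height was 6, at Slc8a1 (14 against 6), at its paralog Slc8a3 (12 against 6) and at Slc16a9. A height of 5 was found inside the sodium/proton exchanger gene Slc9a5 (12 against 5) and inside the zinc transporter gene Slc39a6 (11 against 5, in a SINE). At these positions the fusion exceeded Dam alone by factors of 2 to 2.5. Peaks with a Dam-only height above 1 had a higher median Dnmt1-Dam height (11.5 against 8), a comparison that the minimum difference of 6 shapes.

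Some Slc peaks had close neighbors. Of the 144 peaks, 24 had another peak within 200 bp (16.7%, 11.0 to 23.8), beside 10.8% of the other named peaks. Both members of a pair are counted and are not independent, so this interval is too narrow. The 24 peaks formed 12 pairs at 9 genes, with Slc39a11 holding 3 pairs and Slc10a2 holding 2. Within these 12 pairs the heights were mostly similar. The largest gap was 8, in the 22 and 14 upstream of Slc2a2, and next came 3, in the 12 and 9 inside Slc39a11. A wider gap, of 7 and 17, lay between 2 peaks 280 bp apart inside Slc25a21, beyond the limit of 200 bp. Whether a pair marks 1 site or 2 was not tested. With 1 peak per 1 kb run 131 Slc peaks were left.

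**Figure D4:**
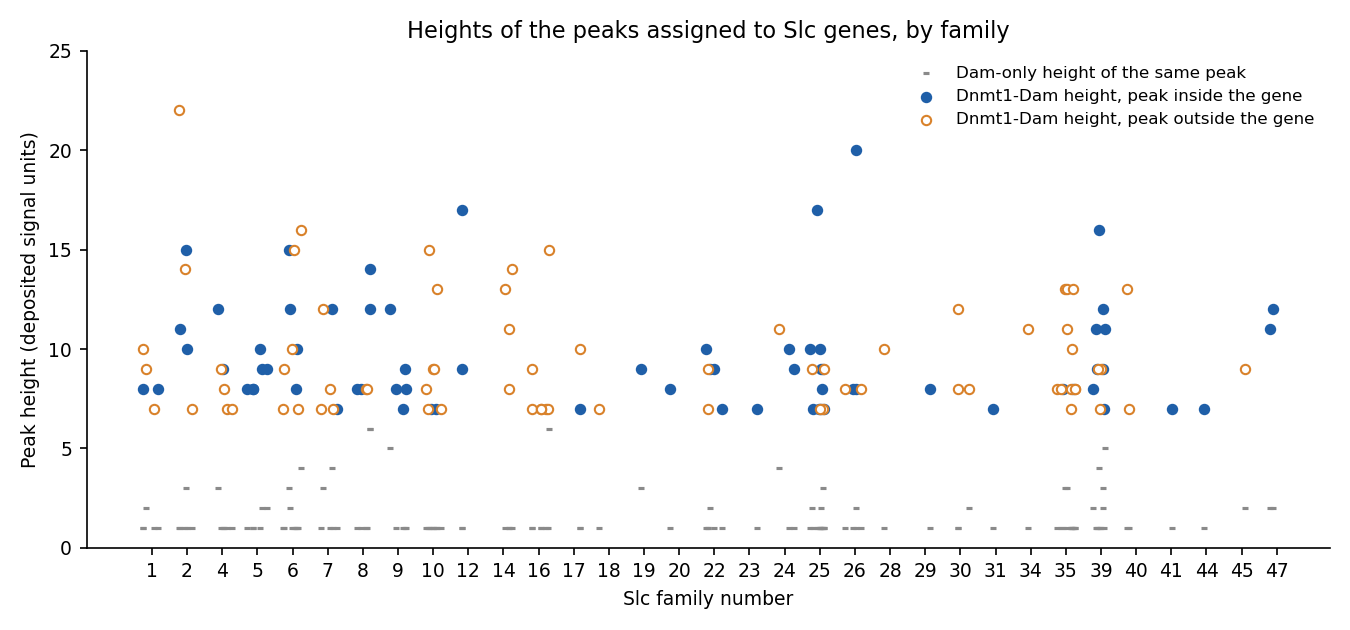
Height of each of the 144 Slc peaks in the Dnmt1-Dam library (circles, filled inside and open outside the gene) and in the Dam-only library (dashes), by Slc family number, in the deposited signal units. Only 2 peaks, in families 2 and 26, reach 20. Families 5 and 9 are among the 11 families with filled circles only, and 8 families have open circles only. Both counts include families with a single peak, for which no mixed outcome was possible.

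By family number, 33 families had a peak. In 11 of them every peak was inside its gene, and in 8 every peak was outside. Many of these families held a single peak, for which no mixed outcome was possible. The most peaks were in family 25 (14 peaks at 8 of 47 genes), family 35 (13 at 8 of 27), family 39 (11 at 4 of 14) and family 6 (10 at 6 of 21). Over all coding genes of the RefSeq table, whatever their name in the file, 22.7% had a peak. In family 39, Slc39a11 held 8 of the 11 peaks. Among the 15 families with 5 or more peaks the median height ran from 7 in family 16 to 12.5 in family 2, with overlapping ranges (7 to 15 and 7 to 22). The 6 peaks of family 2 all belong to Slc2a2 and Slc2a13, each of which holds a close pair. Under the names used in the file, 18 families of the RefSeq table had no peak. Gene and peak counts of the substrate groups below likewise use the file's names, so the 11 genes listed there under another name are not among them. Each substrate group was assigned by family number, so single members may carry other substrates. The families with no peak include Slc27 (6 genes, fatty acid transport proteins), Slc13 (5 genes, sulfate and carboxylate cotransporters) and Slc15 (5 genes, peptide transporters).

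Transporters of inorganic ions had the most peaks of any substrate group, 29 at 18 of 59 genes, and 19 of the 29 were inside. Of the other named peaks, 42.8% were inside. No interval was computed for the inside share of a substrate group or family, and a link with substrate was not tested. Median length of genes with a peak was 90.05 kb in this group, 65.1 kb in mitochondrial carriers and 36.99 kb in sugar transporters. Over all 86 Slc genes it was 38.9 kb, and the inside shares were not adjusted for length. The Slc9 sodium/proton exchangers had 5 of 5 inside: Slc9a2 (7 and 8, both against 1), Slc9a5, and the endosomal Slc9a9 (9 and 8, both against 1, at 472 and 485 kb of its 560 kb). Slc8a3 held 2 inside peaks (12 against 6 and 8 against 1). The bicarbonate transporters had 1 inside peak each in Slc4a10 (9 against 1) and Slc4a8 (12 against 3). Slc24a3 and Slc24a4, potassium-dependent sodium/calcium exchangers, had 1 inside peak each (9 and 10, both against 1). Retroelements were named at 3 of the 29 ion transporter peaks, at Slc8a1 and Slc4a3, all outside the gene.

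Sugar transporters had 13 peaks at 8 of 34 genes, with 9 inside. In family 2 these were 3 of 6, all in Slc2a13, while the 3 peaks of Slc2a2 were outside, as was the 1 peak of Slc45a1. Family 5, the sodium-coupled transporters of glucose and related solutes, had 6 of 6 inside at heights of 8 to 10: the intestinal glucose transporter Slc5a1 (10 against 1), Slc5a11 (9 against 2 and 8 against 1), the multivitamin transporter Slc5a6 (8 against 1, in a SINE), Slc5a8 (9 against 2) and Slc5a9 (8 against 1). Mitochondrial carriers had 14 peaks at 8 of 47 genes under the file's names, with 10 inside. Slc25a26, which imports the methyl donor S-adenosylmethionine into mitochondria, had 2 peaks 80 bp apart (9 against 3 and 10 against 1). Slc25a12, an aspartate/glutamate carrier, held 7 against 1 in a SINE inside the gene, while its paralog Slc25a13 had 9 against 1 at 161 kb upstream.

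Amino acid and neurotransmitter transporters had 24 peaks at 17 of 77 genes, with 9 peaks inside. The 5 members of family 1 with a peak had 1 each, at heights of 7 to 10. For the glutamate transporters these were Slc1a1 (10 against 1, 62.8 kb upstream), Slc1a2 (9 against 2, in the distal promoter, 5.95 kb upstream) and Slc1a3 (8 against 1, inside). For the neutral amino acid exchangers they were Slc1a4 (7 against 1) and Slc1a5 (8 against 1, in a SINE inside the gene). Slc6a9, the glycine transporter, had a SINE peak 6.77 kb upstream (9 against 1) and a repeat-free peak inside (8 against 1). The noradrenaline transporter gene Slc6a2 held 10 against 1 inside, and the vesicular monoamine transporter gene Slc18a2 had 7 against 1 at 9.37 kb upstream. Family 6 had SINEs at 5 of its 10 peaks, beside 17.4% of other named peaks. Of the 5, 2 are the close pair upstream of Slc6a14, and the difference was not tested.

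Nucleoside and nucleotide sugar transporters had 15 peaks at 10 of 35 genes, with 3 inside. These were at Slc35a2 on the X chromosome, Slc35f3 and Slc29a3, each 8 against 1. In family 35, which carries nucleotide sugars into the Golgi and endoplasmic reticulum, 11 of 13 peaks were outside. Organic ion transporters had 24 peaks at 11 of 50 genes, with 8 inside. In family 16, the monocarboxylate transporters, 7 of 7 peaks were outside and 5 were in SINEs or LINEs, including 2 SINE peaks 37.2 and 50.8 kb upstream of the lactate and pyruvate transporter Slc16a1. Both peaks of the drug efflux transporter gene Slc47a2 were inside and in retroelements (12 against 2 in a LINE and 11 against 2 in a SINE).

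Metal transporters had 18 peaks at 10 of 33 genes, with 10 inside, of which 8 were in the zinc importers of family 39. The zinc exporters of family 30 had 3 peaks, all outside: Slc30a5 (12 against 1), Slc30a10 (8 against 1) and the islet transporter Slc30a8 (8 against 2). Slc40a1, the iron exporter ferroportin, had 2 outside peaks (13 against 1 and 7 against 1), and the copper transporter gene Slc31a2 held 7 against 1 inside. Vitamin transporters had a peak at 2 of 12 genes. Slc19a1 and Slc23a2, transporters of folate and ascorbate, held 1 inside peak each (9 against 3 and 7 against 1).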

How the data were processed

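The authors deposited 1 peak table for both libraries, with a signal height per peak and library as whole numbers. The sources do not say if heights were scaled, and no count test was applied. BWA, CASAVA and the mm9 build are named per the submitters' processing notes, and neither a peak caller nor its thresholds are named there. Per the labels' protocols, adapter-ligated DNA went through 15 cycles of PCR and was size-selected near 300 bp. How reads in repeats and duplicate reads were handled is not given, and heights in repeats and in close pairs may depend on it.

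Members were the peaks whose gene name starts with Slc and a digit, without 4 imprinted genes. All 86 genes matched the RefSeq gene table of GRCm38.p6, used for names, family sizes and the background shares of genes with a peak. Gene lengths, distances and repeat classes came from the deposited table, where the location class of 8226 of 8226 peaks followed from the distance to the gene start. A peak was inside from gene start to gene end, and was counted for every repeat class named. Intervals were Clopper-Pearson for shares and exact Poisson for densities. Python 3.11.15, pandas 2.3.3, SciPy 1.17.1 and matplotlib 3.10.9 were used, and the functions were tested on simulated data. Named genes were the 10 with the most peaks, those of the 10 highest peaks, those with a proximal promoter, island or shore peak and the top 2 of each family with 5 or more genes with a peak. Others were named after their values were seen, to describe the families. The members and lists were chosen with earlier results of these data known. Alternatives were height minimums of 9 and 15, 1 peak per 1 kb run, 1 peak per gene, a Dam-only height of 1, current gene symbols, the first repeat named and pseudocounts of 5 and 10.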

Additional observations from a re-analysis of the deposited data

How the results depend on the processing

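Of 43 recalculated summaries, 34 moved by less than their counting interval or spread, or, for counts, stayed within 1.5 times. With a height of at least 9 there were 74 Slc peaks at 55 genes and 6.63 inside peaks per Mb. With a height of at least 15 there were 11 peaks at 10 genes. Counting inside peaks only left 51 genes, and inside peaks or those within 10 kb left 57. The median log2 ratio was 1.12 with a pseudocount of 5 and 0.71 with 10. The share of Slc peaks inside the gene ran from 43.8% (Dam-only height of 1) to 57.0% (1 peak per gene), the share with a retroelement from 24.3% to 28.2%, and the retroelement share of inside peaks from 10.2% to 18.4%. By gene, 1 peak per 1 kb run moved Slc39a11 from 8 peaks to 5. Current symbols gave 159 peaks at 97 genes. Current symbols (except for the share inside), 1 peak per gene, the counts per gene, and all alternatives for the inside retroelement share and the upstream share were chosen after the data were seen. No paired analysis was possible because each group was 1 library. With unknown depth and no replicate, the sampling error of heights near the list's minimum of 7 is unknown, and the shares describe this list only.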

Other observations

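The RefSeq table gives an Slc symbol to 11 genes with 15 peaks that the file lists under another name or none. Slc22a23, an orphan carrier of the organic ion family, had 4: 10 against 1 and 11 against 2 inside the gene, and a pair 100 bp apart at 20 and 19, both against 1, upstream of its start. Proximal promoter peaks were listed at Slc6a8, the creatine transporter gene of the X chromosome (8 against 1), and at Slc38a8 (11 against 3). Slc25a53 (13 against 1), Slc38a10 (11 against 1) and Slc66a2 (11 against 1) held 1 peak each inside the gene, as did Slc2a7 and Slc37a2 (7 against 1 in both). Of the 15 peaks, 1 was named as a retroelement, a LINE at Slc35g2 (8 against 1).

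With each Slc gene divided into 4 equal parts from its start, the first part held 23 of the 71 inside peaks (32.4%, 21.8 to 44.5) and the following parts 15, 13 and 20. In the other named genes the first part held 21.6% of inside peaks. No test was run on this difference.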
